A study of Drosophila melanogaster with 39 samples.

Results

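Piwi-SL(Ago3), a Piwi protein that carries the specificity loop of Ago3 in place of its own, was compared with tagged wild type Piwi (wt) in fly ovaries that make no other Piwi. The comparison rests on 6 of the 39 libraries of the series, 3 Ago3 rescue and 3 wt rescue libraries of total small RNA, chosen by their labels alone. The question was whether the small RNA population of an ovary differs when the loop differs. The tables used hold the number of reads of each length and the number of reads that map once, several times or not at all, without read sequences. First nucleotides and transposon families of these 6 libraries were therefore not analysed here.

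Both rescue genotypes were homozygous for Piwi>gal4, an allele in which the piwi promoter drives Gal4 instead of piwi, and carried UAS-FLAG-HA-Piwi_SL_Ago3 or UAS-FLAG-HA-Piwi_SL_wt. The transgenes were inserted at random sites, so each rescue has its own insertion, and the protein carries an N-terminal FLAG and HA tag. The piwi null libraries (n = 3) came from homozygous Piwi>gal4 ovaries without a transgene, and the control libraries (n = 3) from heterozygous Piwi>gal4/CyO ovaries. A further rescue carried Piwi-SL(GSS), a synthetic loop (n = 3). The labels do not say whether the replicates are separate groups of animals, so p-values measure the spread between these libraries, which may be technical.

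Piwi is a nuclear Argonaute protein of the PIWI clade that binds PIWI-interacting RNAs (piRNAs) and silences transposons in the germline and in the somatic cells of the ovary. The specificity loop lies in the MID domain, where the 5′ end of the small RNA is anchored, and faces its first base. Ago3 is another fly PIWI protein, found in the cytoplasm of germ cells, which mostly binds piRNAs of the transposon sense strand without the strong preference for a first uridine that Piwi-bound piRNAs have.

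The exchanged loop is shown because it is the single designed difference between both proteins. In the annotation of build dm6 piwi lies on chromosome 2L from 10982205 to 10987420 on the minus strand, and AGO3, the donor of the loop, on chromosome 3L from 23554593 to 23689640 on the plus strand. The coding strand of the Ago3 loop was read from the tails of the mutagenesis primers, and the piwi stretch from the annealing part of the primer for the GSS loop. Capitals mark, in the first line, the bases that the reverse primer adds and, in the others, the bases that differ between the Ago3 loop and piwi.
Ago3 loop, first part: CACAATCGTAGAGACGAT
Ago3 loop, second part: agatacGcaGcaatcaaa
piwi, same stretch: agatacTcaTcaatcaaa
The first part has 18 bases, and the natural bases it replaces are not printed here. The second part has 18 bases as well and differs from piwi at 2 of them, T7G and T10G, with the piwi base first, the position counted from 1 at the 5′ end of the stretch, and the base of the Ago3 loop last. The 5 bases after the stretch are the same in both primers.

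Raw reads numbered 10261458, 9825749 and 8794857 in the Ago3 rescue libraries of replicates 1, 2 and 3, and 12570446, 27194879 and 11406096 in the wt rescue libraries. Every Ago3 library thus held fewer raw reads than every wt library. In each library the raw reads equal the sum of the reads that map once, several times or not at all. Whether they include the miRNA, rRNA and other structural RNAs that the authors removed is not given. They may therefore not measure sequencing depth. Reads of 20–30 nt, the lengths that were deposited, numbered 8502064, 8341365 and 7494510 in the Ago3 rescue, and 10500991, 23201486 and 9503936 in the wt rescue. At these counts the counting error of a share is far below the spread between libraries. Each library carries a barcode label of 2 numbers. The first, an RPI index, is 25, 26 or 27 and is shared by all genotypes of replicate 1, 2 or 3. The second is shared by all libraries of a genotype, 04 in the Ago3 rescue and 47 in the wt rescue. Genotype and this second barcode cannot be told apart.

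The small RNAs of Ago3 and wt rescue ovaries had a broad peak of piRNA size, and the libraries of both genotypes overlapped in every length measure. The most frequent length was 25 nt in all 3 Ago3 libraries, against 25 nt in wt replicates 1 and 2 and 26 nt in wt replicate 3. Reads of 24–29 nt, the window of piRNAs, made up 75.8%, 71.3% and 73.0% of the 20–30 nt reads in the Ago3 rescue, and 78.7%, 70.4% and 79.3% in the wt rescue. The ranges overlap, and replicate 2 has the lowest share in both genotypes. The mean was 73.4% ± 2.29 in the Ago3 rescue and 76.2% ± 4.98 in the wt rescue (SD, n = 3 each), a difference of −2.80 percentage points that did not pass a two-sided exact permutation test (p = 0.40, adjusted p = 1.0 over 5 length measures). With 3 libraries against 3 this test cannot give a p below 0.10. Within the index pools the difference was −2.94, 0.83 and −6.30 points in replicates 1, 2 and 3, so the sign was not shared. The size of the difference depends on single libraries and on the 30 nt reads. It was −1.41 points for 24–30 nt reads and −1.74 points without 30 nt reads, where replicate 3 differed by −2.13 and −3.11 points. Without wt replicate 2 it was −5.67 points, without wt replicate 1 −1.52 points, without wt replicate 3 −1.22 points and without Ago3 replicate 2 −1.75 points, and without replicate 3 of both genotypes, a setting added after the data had been seen, −1.05 points.

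**Figure D1:**
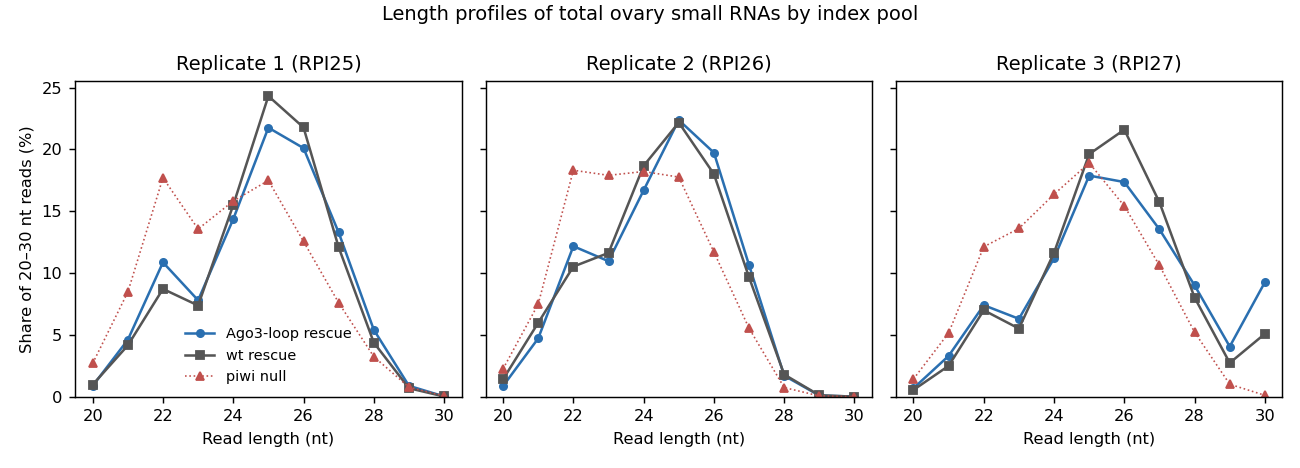
Share of 20–30 nt reads (y axis, %) by read length (x axis, nt) in the Ago3-loop rescue (blue circles), wt rescue (grey squares) and piwi null (red triangles, dotted), 1 panel for each index pool. The Ago3 and wt curves lie close to each other in each panel, both apart from the null at 22 and 23 nt, and both change shape between panels, with 30 nt reads at 9.26% (Ago3) and 5.09% (wt) in replicate 3.

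The mean read length was 24.8, 24.5 and 25.7 nt in the Ago3 rescue, and 24.8, 24.4 and 25.6 nt in the wt rescue. Libraries of the same replicate number have nearly the same mean, while replicate 3 of both genotypes has longer reads than the others. The genotype means differed by 0.0698 nt (25.003 ± 0.637 nt in the Ago3 rescue, 24.93 ± 0.597 nt in the wt rescue, SD, n = 3 each; exact permutation test, p = 0.80). The index pool accounts for 99.0% of the sum of squares of this measure over the 6 libraries and the genotype for 0.477%. In every such split the pool has more levels than the genotype, so noise alone gives the pool a larger part. Reads of 21 nt, the length of Dicer-2 products that guide Ago2 (siRNAs), made up 4.60%, 4.72% and 3.30% in the Ago3 rescue, and 4.16%, 5.98% and 2.503% in the wt rescue. The Ago3 values lie within the wt range (exact permutation test, p = 1.0), and the 21 nt share was higher in the Ago3 rescue in replicates 1 and 3 and lower in replicate 2.

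Each length was then compared on its own. With edgeR's quasi-likelihood test on the counts of the 11 lengths, no length passed the test between the Ago3 and wt rescue (0 of 11 called at a Benjamini-Hochberg adjusted p below 0.05, 0% of the lengths tested; 0 at an unadjusted p below 0.05). DESeq2 and limma called 0 lengths as well, also 0 at an unadjusted p below 0.05. With the index pool as a block edgeR called 0 of 11 (0%), 1 of them at an unadjusted p below 0.05, and the smallest adjusted p was 0.422, for 30 nt. At no length did the 3 Ago3 libraries lie apart from the 3 wt libraries. The share was higher in the Ago3 rescue in 3 of 3 pools at 2 lengths, 22 and 30 nt, and lower in 3 of 3 pools at 1 length, 24 nt. At a length without a difference, 3 pools share 1 sign with a probability of 0.25. The count of such lengths among the 11 is therefore near what chance gives.

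Reads of 22 nt, a length shared by many miRNAs, remained in the tables although the authors had removed reads of known miRNAs by mapping. They made up 10.9%, 12.2% and 7.41% in the Ago3 rescue, and 8.72%, 10.5% and 6.995% in the wt rescue, which is 2.15, 1.65 and 0.41 percentage points more in the Ago3 rescue. The groups overlap because replicate 3 is low in both. The log2 fold change was 0.21 ± 0.31 (SE, edgeR adjusted p = 1.00), and 0.20 ± 0.11 with the pool as a block (edgeR adjusted p = 0.483). Reads of 24 nt, at the short end of the piRNA window, were 14.4%, 16.7% and 11.2% in the Ago3 rescue, and 15.5%, 18.7% and 11.6% in the wt rescue. The difference, lower in the Ago3 rescue in each pool, was −1.14, −1.98 and −0.454 points, with a log2 fold change of −0.12 ± 0.23 (SE, edgeR adjusted p = 1.00). At 25 and 26 nt, the top of the profile, the Ago3 share was lower in 2 of 3 pools and higher in replicate 2.

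**Figure D2:**
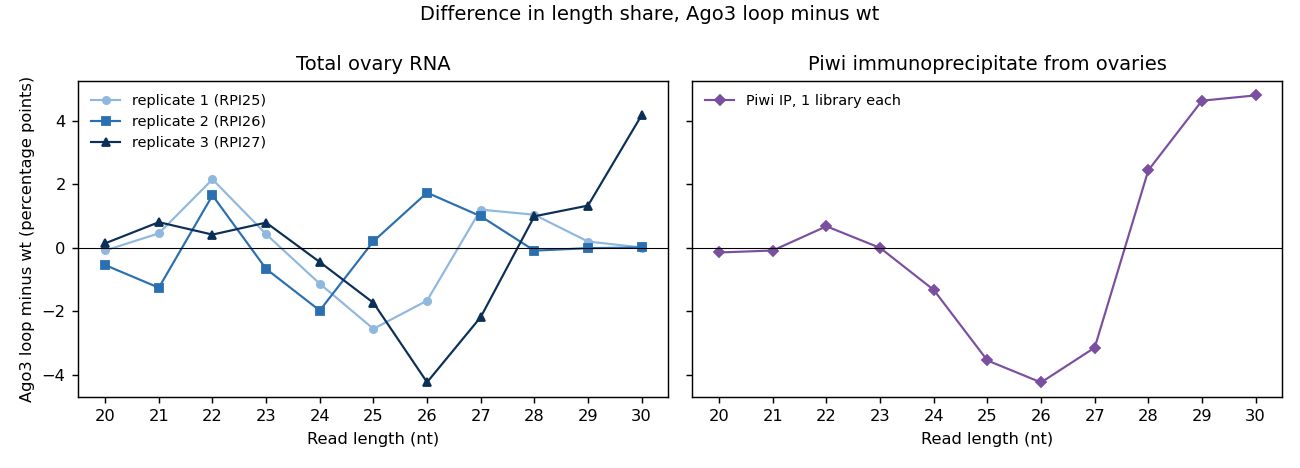
Ago3 minus wt difference in the share of each read length (y axis, percentage points; x axis, nt), in total ovary RNA for each index pool (left, shades of blue) and between the single Piwi immunoprecipitates of each construct (right, purple). Differences of total RNA are above 0 in all pools only at 22 and 30 nt and below 0 in all pools only at 24 nt. The immunoprecipitates differ by 4.79 points at 30 nt.

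Reads of 30 nt differed widely between libraries. They made up 0.0299%, 0.0158% and 9.26% in the Ago3 rescue, and 0.0261%, 0.00977% and 5.09% in the wt rescue. In both rescues the library with index RPI27 holds nearly all of them. With this index they were also 32.3% of the GSS rescue library and 4.62% of the control, but 0.119% of the null. With index RPI25 they were 3.29% of the GSS rescue library. The difference between the Ago3 and wt rescue was 4.17 points in replicate 3 and below 0.01 points in the others, so the higher 30 nt mean of the Ago3 rescue (3.10%, against 1.71% in the wt rescue) rests on 1 pair of libraries. The deposited lengths end at 30 nt, and which RNAs these reads are was not tested.

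Within the piRNA window the longer reads were set against the shorter ones. The log2 ratio of 27–29 nt to 24–26 nt reads was −1.52, −2.24 and −0.80 in the Ago3 rescue, and −1.84, −2.35 and −0.998 in the wt rescue. It was higher in the Ago3 rescue in 3 of 3 pools, by 0.32, 0.11 and 0.19, a mean difference of 0.21 on the log2 scale. For 28–30 nt over 24–26 nt reads the difference was 0.44, −0.079 and 0.68, higher in 2 of 3 pools, with a mean of 0.35 (exact permutation test, p = 0.80). Without Ago3 replicate 3 or without wt replicate 2 the mean difference of the first ratio was −0.15 or −0.10, and without Ago3 replicate 2 or wt replicate 3 it was 0.57, since the pools are then unbalanced. The groups overlap because the pools differ more than the genotypes, and the difference did not pass (exact permutation test, p = 0.70; within pools p = 0.25, the smallest that 3 pairs allow). The mean length of the 24–29 nt reads alone was 25.7 nt in the Ago3 rescue and 25.6 nt in the wt rescue, and was higher in the Ago3 rescue by 0.0985, 0.0708 and 0.0844 nt in the 3 pools, with overlapping groups (exact permutation test, p = 0.70).

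The whole profiles were then set side by side by the summed absolute difference of the 11 shares. Ago3 and wt libraries of the same pool were 10.9, 9.14 and 17.2 points apart in replicates 1, 2 and 3. Libraries of the same genotype from different pools were 15.1 to 46.8 points apart in the Ago3 rescue and 23.01 to 47.1 points in the wt rescue. Profiles of the Ago3 rescue, wt rescue and null were compared, without the control and GSS rescue. Among these, the nearest profile to each of the 6 rescue libraries was that of the other rescue in its own pool. The mean distance between genotypes minus that within genotypes was −6.60 points (one-sided exact permutation test, p = 0.90; within pools p = 0.75). The first mean includes the 3 same-pool pairs, while every pair of the same genotype comes from different pools, so the negative sign follows from the pairing. Ago3 and wt libraries of different pools were 32.2 points apart on average, against 31.4 points within the Ago3 rescue and 33.0 points within the wt rescue. Over the 11 lengths the pool accounted for a median of 84.9% of the sum of squares and the genotype for 3.78%, and the pool took most of it at 10 lengths.

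Both rescues had a larger share of piRNA-sized reads than piwi null ovaries. The null share of 24–29 nt reads was 57.5%, 54.0% and 67.6%, so every library of both rescues lies above every null library. The Ago3 rescue exceeded the null by 18.3, 17.2 and 5.49 points in replicates 1, 2 and 3, and the wt rescue by 21.3, 16.4 and 11.8 points. The small excess of Ago3 replicate 3 stood beside its 30 nt reads. Without 30 nt reads its share was 80.5%, against 67.6% in the null of the same pool, and the mean excess over the null was 16.1 points for the Ago3 rescue and 17.9 points for the wt rescue. Each mean difference, 13.7 points for the Ago3 rescue and 16.5 for the wt rescue, gave p = 0.10, the smallest possible in the exact permutation test and, after adjustment over 6 such comparisons, all with the same null libraries, 0.20. The difference from the null in the 21 nt share was −2.83 points in the Ago3 rescue (exact permutation test, p = 0.10, ranges apart) and −2.82 points in the wt rescue (exact permutation test, p = 0.20, ranges overlap). In the same pool the Ago3 profiles were 39.6, 37.5 and 41.7 points from the null, and the wt profiles 43.3, 32.8 and 43.0 points. A difference in share cannot tell a gain of piRNAs from a loss of other small RNAs, since all shares add up to 100%.

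**Figure D3:**
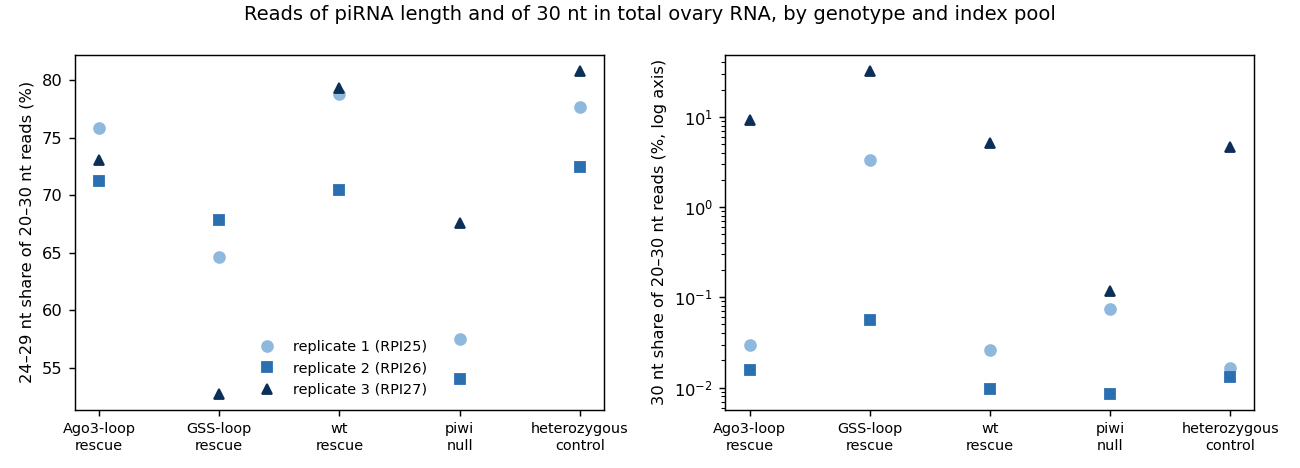
Share of 24–29 nt reads (left, %) and of 30 nt reads (right, %, log axis) in the 20–30 nt reads of each total RNA library, by genotype (x axis), with 1 symbol for each index pool. The Ago3-loop and wt rescues lie above the null in the left panel, between 70.4% and 79.3%. In the right panel only RPI27 libraries, and GSS replicate 1 at 3.29%, are above 1%. Control libraries are drawn from length tables that hold 3.72% to 45.8% of their mapped reads.

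The rescues did not overlap in the share of reads that map to a single site. Most piRNAs come from transposon remnants that exist in many copies, and reads of such copies map to several sites (multimappers, kept by the authors up to 100 sites, M ≤ 100). Uniquely mapping reads were 28.5%, 28.96% and 24.1% of the mapped reads in the Ago3 rescue, and 31.7%, 33.1% and 30.0% in the wt rescue. Every Ago3 library lies below every wt library, and the Ago3 minus wt difference within the pools was −3.26, −4.11 and −5.91 points. The mean was 27.2% ± 2.70 in the Ago3 rescue and 31.6% ± 1.56 in the wt rescue (SD, n = 3 each). This difference of −4.43 points gave p = 0.10, the smallest that the exact permutation test allows, and an adjusted p = 0.233 over 7 mapping measures, so it did not pass the threshold of 0.05. An exact permutation within pools gave p = 0.25, again the smallest possible.

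Here the genotype accounted for 60.2% of the sum of squares and the pool for 36.1%, while the pool took 65.9% to 99.0% for the 24–29 nt share, the mean length, the 21 nt share and the log2 ratio of 27–29 to 24–26 nt reads. In the wider window of 23–29 nt the genotype took 36.3% and the pool 35.4%. The pool has more levels than the genotype, so equal parts are not equal effects. The Ago3 library with the lowest unique share, replicate 3, is also the one with the most 30 nt reads. With all 30 nt reads counted as multimappers and removed, a limit that was added after the data had been seen, the unique share was 28.5%, 28.96% and 26.3% in the Ago3 rescue, and 31.7%, 33.1% and 31.4% in the wt rescue. The difference was then −4.16 points, and the groups stayed apart. Without replicate 3 of both genotypes it was −3.69 points, and without Ago3 replicate 3 alone −2.87 points. All Ago3 libraries also held fewer raw reads, and the part of the read number in this difference was not tested.

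**Figure D4:**
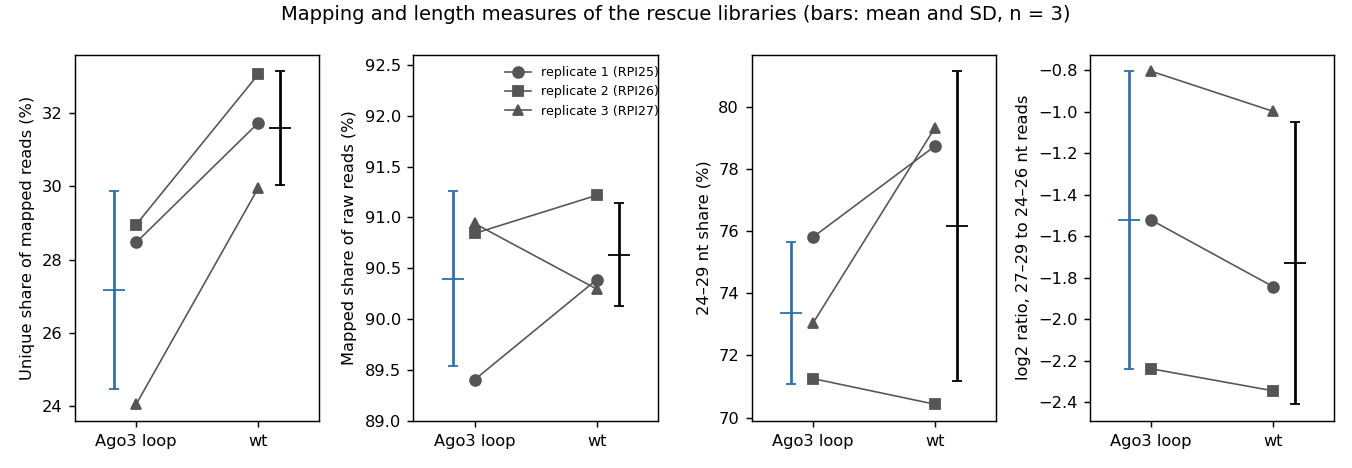
Unique share of mapped reads (%), mapped share of raw reads (%), 24–29 nt share (%) and log2 ratio of 27–29 to 24–26 nt reads in the Ago3-loop rescue (left in each panel) and the wt rescue (right). Points are libraries, lines join libraries of 1 index pool, and bars at the side give the mean and SD (n = 3 each); the y axes do not start at 0. The unique share is the only one of the 4 in which the groups do not overlap, with all Ago3 libraries at or below 28.96% and all wt libraries at or above 30.0%.

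The lower unique share of the Ago3 libraries stood beside a higher share of multimappers. As a share of raw reads, unique mappers were 25.5%, 26.3% and 21.9% in the Ago3 rescue, and 28.7%, 30.2% and 27.1% in the wt rescue. Multimappers were 63.9%, 64.5% and 69.1% of raw reads in the Ago3 rescue, and 61.7%, 61.1% and 63.2% in the wt rescue. Both measures have groups that do not overlap, with differences of −4.09 and 3.85 points (each p = 0.10 in the exact permutation test, adjusted p = 0.233). Mapped reads are the sum of both classes, and the mapped share was nearly equal between the genotypes. These differences therefore largely restate that in the unique share of mapped reads and are not separate results. Without Ago3 replicate 3, the library with the most 30 nt reads of the 6, the multimapper difference was 2.24 points. The mapped share was 90.4% ± 0.860 in the Ago3 rescue and 90.6% ± 0.507 in the wt rescue (SD, n = 3 each), with overlapping groups (exact permutation test, p = 0.80). Unmapped reads were 9.55% of raw reads in the Ago3 rescue and 9.30% in the wt rescue (exact permutation test, p = 0.80). Reads with more than 100 sites were 0.0560% in the Ago3 rescue and 0.0640% in the wt rescue (exact permutation test, p = 0.40).

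The unique share of the Ago3 rescue lay between those of wt rescue and null ovaries in each pool. In the null it was 26.3%, 24.4% and 22.03%. The Ago3 rescue exceeded it by 2.18, 4.61 and 2.02 points, with overlapping ranges (24.2% ± 2.13 in the null, SD, n = 3; exact permutation test, p = 0.30). The overlap is that of Ago3 replicate 3, the library with the most 30 nt reads of both rescues. How these reads map was not tested, and removing them as multimappers can only raise a unique share. With 30 nt reads removed as above, the Ago3 rescue exceeded the null by 3.69 points with ranges just apart (lowest Ago3 library 26.34%, highest null library 26.31%; exact permutation test, p = 0.10, the smallest possible). The wt rescue exceeded it by 5.45, 8.71 and 7.93 points, with ranges apart (exact permutation test, p = 0.10, the smallest possible, adjusted p = 0.20 over these 2 comparisons, which share the null libraries). Control libraries had 29.6%, 31.1% and 24.8%, which also lie between the Ago3 and wt rescue in each pool. GSS rescue libraries had 32.9%, 33.7% and 19.3%, where the last has the 30 nt reads given above. The comparison of the unique share with the null was added after the data had been seen.

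Piwi-bound small RNAs gave differences of the same sign in this measure. In FLAG immunoprecipitates from rescued ovaries, 1 library for each construct and so without a replicate check, the unique share was 24.2% (95% Clopper-Pearson interval 24.1 to 24.2) for Piwi-SL(Ago3) and 29.8% (29.8 to 29.9) for wt. These intervals cover counting error only. With 30 nt reads taken as multimappers and removed, the unique share was 25.9% for Piwi-SL(Ago3) and 30.7% for wt. In ovarian somatic sheath cells (OSC), a cell line of somatic follicle cell origin in which the constructs were expressed from plasmids, it was 30.6% ± 0.322 for Piwi-SL(Ago3) (SD, n = 3) and 34.3% ± 1.26 for wt (SD, n = 5). The Ago3 minus wt difference was −4.43 points in total ovary RNA and −3.76 points in OSC immunoprecipitates, and the first minus the second was −0.664 points (exact permutation test over 1120 arrangements, p = 0.846). For the 24–29 nt share the difference was −2.80 points in ovaries and 1.72 points in OSC (same exact permutation test, p = 0.379). The Ago3 and wt labels were permuted within each source, which takes them as exchangeable in both. These p-values therefore do not measure whether the differences are equal. The OSC libraries come from cells whose own piwi was not replaced and from immunoprecipitates, so tissue, background and library type cannot be told apart in this comparison.

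The lengths of Piwi-bound reads from ovaries were compared in the same libraries. Reads of 27 nt were the most frequent for both constructs, at 20.1% for Piwi-SL(Ago3) and 23.3% for wt. The log2 ratio of 27–29 nt to 24–26 nt reads was 0.63 for Piwi-SL(Ago3) and 0.18 for wt, 0.45 higher with the Ago3 loop. The 22 nt share was 1.89% for Piwi-SL(Ago3) and 1.22% for wt, the 24 nt share 4.94% and 6.27%, and the 30 nt share 8.41% and 3.62%. These 3 lengths were picked because total RNA had 1 sign there in all 3 pools, and the differences have that sign here. The other lengths had no such shared sign to compare with. At 30 nt the size of the difference in total RNA rests on replicate 3. With 1 library for each construct, the shared sign is a description and cannot serve as a test. The 21 nt share was below 1% in both, at 0.564% for Piwi-SL(Ago3) and 0.655% for wt. In OSC the same log2 ratio was −0.41 ± 0.11 for Piwi-SL(Ago3) (SD, n = 3) and −0.40 ± 0.82 for wt (SD, n = 5), and the 22 nt share was 2.46% ± 0.417 for Piwi-SL(Ago3) and 2.90% ± 1.62 for wt.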

How the data were processed

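Total RNA of ovaries was size selected, ligated to barcoded linkers, amplified and sequenced. The authors removed adapters with cutadapt, removed structural RNAs (miRNA, rRNA, snRNA, snoRNA and tRNA) and mapped the rest to dm6 with STAR, and deposited counts of raw, unique, multimapping (M ≤ 100 and M > 100) and unmapped reads, and counts of reads of 20 to 30 nt by length. Mapped reads are unique reads plus multimappers with M ≤ 100. How reads of other lengths were treated is not given in the sources used here. Raw read numbers are given with the results. The deposited tables of annotation were not used, since they do not cover these 6 libraries, and 0 per-sample columns were left unmatched.

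Shares were computed per library in Python 3.11.15 (numpy 2.4.6, pandas 2.3.3) and compared by exact permutation of the library labels, two-sided unless stated, with Benjamini-Hochberg adjustment over 7 mapping measures, 5 length measures or 6 comparisons with the null. Counts by length were tested with edgeR 4.0.16 (quasi-likelihood) on library sizes of all 20–30 nt reads, with DESeq2 1.42.0 and limma 3.58.1 on centred log ratios (prior count 0.5) as alternatives, in R 4.3.3, and the code was tested on simulated data. Figures were drawn with matplotlib 3.10.9. The standard error of a log2 fold change is its size divided by the square root of edgeR's F.

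Libraries of the same replicate number share an RPI index by their labels. Their deviations from the genotype mean correlated at 0.768, 0.823 and 0.855, against −0.939 to 0.477 for different numbers. The deviations within a genotype cancel out, so high values for the same number force low ones for different numbers. The pairing rests on the labels. All 11 lengths were described, and none was selected by its values for the tests; lengths described in detail are those with 1 sign in 3 of 3 pools. Measures and lists were chosen with earlier results of these data known. Alternatives were other windows, no 30 nt reads, other scalings, a block for the pool, all 15 total RNA libraries in one fit, and leaving out each library.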

Additional observations from a re-analysis of the deposited data

How the results depend on the processing

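No permutation test of 3 libraries against 3 could pass the threshold, so an unchanged call there says nothing about stability. The tests of ovary against OSC differences have more arrangements and are not bound in this way. No alternative gave a called length. The replicate block (the index pool as a term, or labels permuted within pools) changed no call: edgeR's smallest adjusted p was 0.422, and the unique share kept its difference of −4.43 points with p = 0.25 in the exact permutation within pools. Leaving out 1 library at a time moved this difference between −5.32 and −2.87 points, always lower in the Ago3 rescue. Several small differences changed sign. The 21 nt share difference (−0.00364 points) became 0.0642 without 30 nt reads and 1.23 for 20–22 nt reads. The ovary minus OSC difference in mean length (0.00179 nt) became −0.0153 with wt replicates 1 to 3 of OSC and −0.0607 without 30 nt reads. The log2 fold change at 21 nt (−0.00) became 0.0111 with TMM factors, 0.0730 with DESeq2, 0.00366 with mapped reads as library size, 0.0695 with the replicate block, 0.0216 for 20–29 nt reads and 0.0911 with both (the last chosen after seeing the data). At 27 nt (−0.00) it became 0.0390, 0.0616, 0.00958, 0.0204, 0.0201 and 0.0420 in the same settings, and 0.0612 for 24–29 nt reads. At 23 nt (0.03) limma gave −0.0131. Leaving out single libraries gave differences of −0.285 to 0.389 nt in mean length, −0.859 to 0.881 points in the 21 nt share, −0.15 to 0.57 in the log2 ratio of 27–29 to 24–26 nt reads, −0.511 to 0.257 points in the mapped share and −0.244 to 0.514 points in the unmapped share. For log2 fold changes it gave −0.55 to 0.0921 at 20 nt, −0.27 to 0.34 at 21 nt, −0.21 to 0.37 at 23 nt, −0.28 to 0.0532 at 24 nt, −0.17 to 0.0020 at 25 nt, −0.19 to 0.0023 at 26 nt, −0.15 to 0.20 at 27 nt, −0.41 to 0.80 at 28 nt, −1.26 to 2.04 at 29 nt and −6.22 to 7.43 at 30 nt. The 22 nt fold change stayed above 0, between 0.06 and 0.40. The pools are unbalanced once a library is left out, and the 30 nt range is set by the RPI27 libraries.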
